A study of Mus musculus with 32 samples.

Results

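The collagens and other matrix proteins that make up scar tissue in a fibrotic heart were followed as 46 named genes across ventricles of wild type mice, of transgenic mice with cardiac hypertrophy and of transgenic mice in cardiac failure. The list holds the genes of the matrix itself, of the enzymes and chaperones that mature collagen, and of the products of the fibroblasts that make it. Of the 46 genes, 42 had a probe set annotated with 1 symbol, among 13674 such genes in the series, and where a gene had several, the one with the highest mean log2 signal stood for it. Fbn1, Spp1, Thbs1 and Prelp were not analysed here. In all, 36 genes passed the filter on low signal and were tested, 33 on the first array type and 3 (Thbs4, Plod1 and Pi16) on the second. All 36 also passed the filter when the failure arrays were set aside, so none was tested only because it was bright in failure.

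Total RNA of cardiac ventricle was hybridised to 2 types of Affymetrix array that carry different probe sets, 16 arrays of each. On each type there were 5 arrays of wild type mice, 8 of AT1 transgenic mice with hypertrophy, and 3 of AT1 transgenic mice in failure; the transgene is described as cardiac specific. The promoter of the transgene, the line and the strain, age and sex of the mice are not given in the sources used here, and AT1 is not spelled out in the labels; in heart studies the name is common for a receptor of angiotensin II. Both diseased groups carry the transgene, so failure against hypertrophy compares 2 labelled states of transgenic ventricle. Either group against wild type compares the transgene and the disease together. Since line, strain, age and sex are not given, a difference in any of these cannot be told apart from the labelled state. The labels do not tie arrays to animals, so the p-values speak only for the spread among these samples, which may in part be technical.

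Cardiac fibroblasts secrete fibrillar collagens I and III, which chaperones fold, lysyl hydroxylases modify and lysyl oxidases crosslink outside the cell. Around these fibres lie elastic microfibrils, small leucine rich proteoglycans that set fibre thickness, and matricellular proteins that are made in quantity after injury and act on cells rather than bear load. Angiotensin II and TGF-beta are textbook inducers of this programme, and its stiffening of the ventricle is a known feature of failing hearts.

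Signals are given as deposited, as intensities on a linear scale, and probe sets are compared only with themselves, since a probe set's brightness also reflects its sequence. For tests, values below the 20th percentile of a type, 39.5 for the first and 27.5 for the second, were raised to it and log2 was taken. A log2 change of 1 means a doubling. Changes and standard errors come from limma with all 16 arrays of a type in 1 fit, and p-values were adjusted over all tested probe sets of a type by the Benjamini-Hochberg method with a threshold of 0.05. Trimmed means of the first type lay between 179 and 201 in 15 arrays and at 158 in hypertrophy replicate 1. The ratio of the 5' to the 3' probe set of Gapdh, a check of RNA integrity, was 0.468 in hypertrophy replicate 6 and 0.0487 in hypertrophy replicate 7 on the first type, against 0.806 to 1.11 in the other arrays. Of the cardiomyocyte markers Myh6, encoding alpha myosin heavy chain, had signals of 8316 to 8589.9 in wild type and 8204, 7643 and 8038 in failure, and all 12 cardiomyocyte markers passed the filter.

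In failure the matrix genes lay mostly above wild type, but no single gene passed the threshold. The log2 change of failure against wild type was above 0 in 33 of 36 genes, where 59.7% of all tested probe sets were above 0, and its median was 0.42 against 0.050 over all probe sets. At an unadjusted p under 0.05, 15 of the 36 (41.7%) were higher and 0 were lower, beside 7.99% and 3.45% of all probe sets. After adjustment limma called 0 of 36, beside 0.25% of all probe sets, and the smallest adjusted p was 0.0538, of Mgp. In 7 genes (19.4%) every failure array lay above every wild type array, which held for 9.17% of all probe sets: Mgp, Mfap5, Eln, Bgn, Fbln2, Fn1 and Pi16. By these probe sets no gene lay below wild type in the same way, beside 4.34%. In bulk RNA a difference in the number of cells of a type and a difference in RNA per cell cannot be told apart.

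**Figure D1:**
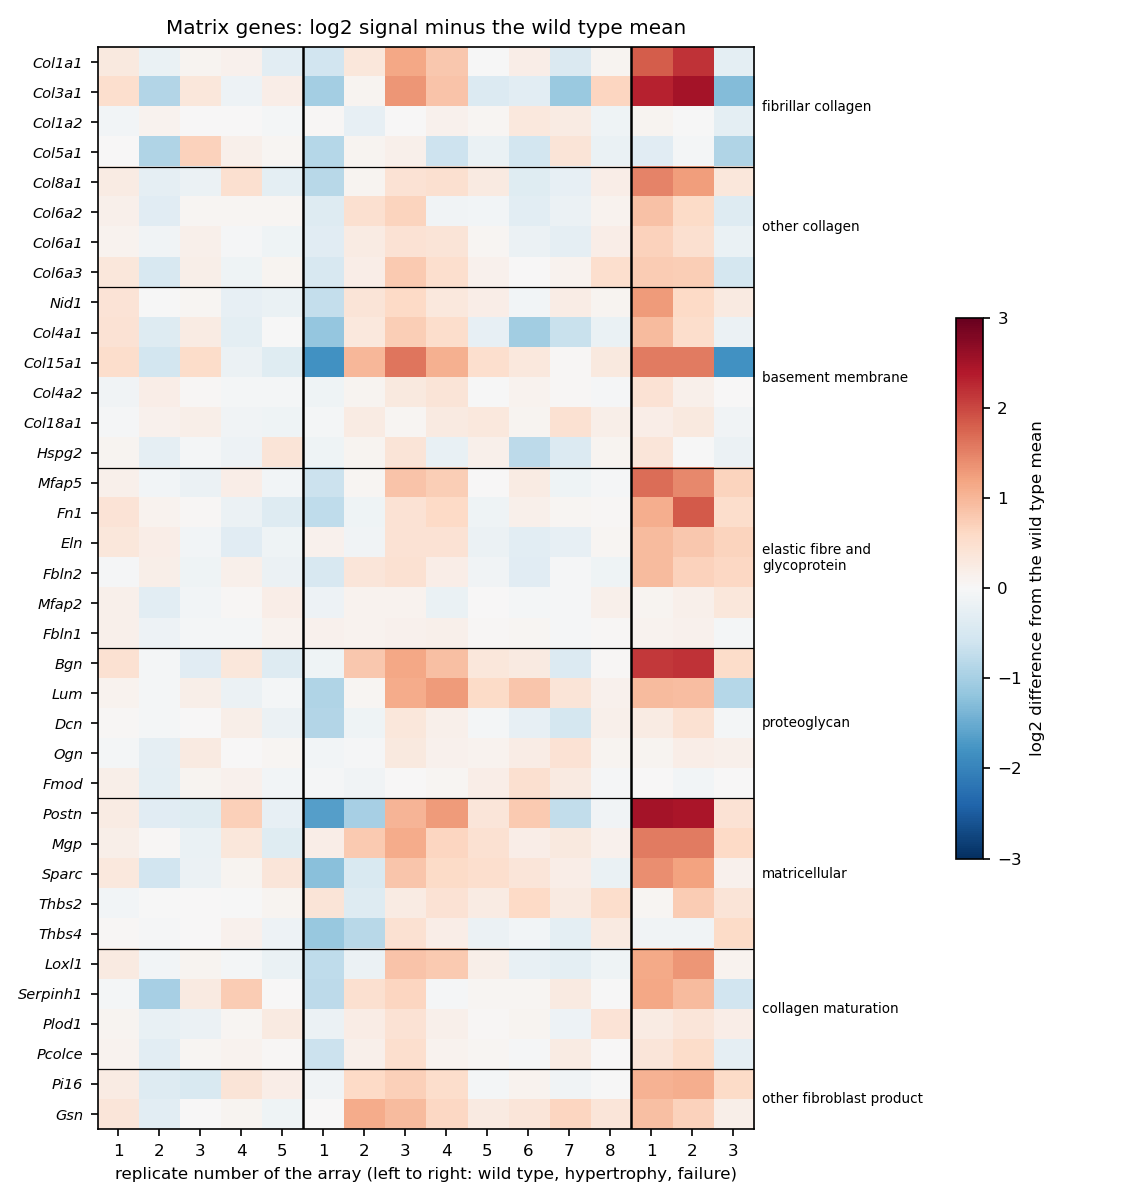
Each of the 36 tested matrix genes (rows, grouped by role and sorted by change) in the 16 arrays (columns, replicate numbers within wild type, hypertrophy and failure), coloured by log2 signal minus the mean log2 signal of the 5 wild type arrays. Failure replicates 1 and 2 are red in most rows and replicate 3 is pale or blue in many, while hypertrophy replicates 3 and 4 are red and replicate 1 is blue.

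By the brightest probe set of each gene, the fibrillar collagens did not all move alike. Col1a1, the alpha 1 chain of collagen I, had signals of 209, 148, 182, 187 and 138 in wild type and from 115 to 379.5 with a median of 189 in hypertrophy. In failure its signals were 606, 771 and 140.3 in replicates 1, 2 and 3, a log2 change of 1.24 ± 0.45 (SE), limma adjusted p = 0.315. The first 2 failure arrays were above every array of the other groups and the third lay within the wild type range. Col3a1, the chain of collagen III, showed the same split more widely: 1088, 1248 and 90.0 in failure against 311, 119, 279.6, 197 and 255 in wild type, so that replicate 3 was below all wild type arrays. Its log2 change was 1.17 ± 0.71 (SE), limma adjusted p = 0.603. Col1a2, the partner chain of Col1a1 in collagen I, was at 493, 462 and 381 in failure and 440.3 to 501 in wild type, a log2 change of -0.071 ± 0.13 (SE), limma adjusted p = 0.899. Col5a1, a chain of the collagen V that nucleates collagen I fibres, was at 468, 567 and 313 against 317 to 951, with overlapping groups and the lowest log2 change of all 36 genes, -0.43 ± 0.31 (SE), limma adjusted p = 0.679. Col5a2, its partner chain, did not pass the filter: all 5 wild type arrays were below the floor at 21.3 to 31.0, and the failure arrays read 145, 125 and 45.7. Fitted without the filter, Col5a2 had a log2 change of 1.25 ± 0.26 (SE), limma adjusted p = 0.0910, on values raised to the floor.

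Collagen I illustrates how far the choice of probe set matters. The dimmer probe set of Col1a2 gave 129, 65.7, 101, 99.9 and 113 in wild type and 443, 622 and 78.6 in failure, a log2 change of 1.49 ± 0.57 (SE), limma adjusted p = 0.337, while the brighter one did not separate the groups. The dimmer probe set of Col1a1 gave 351, 501 and 151 in failure and a log2 change of 0.96 ± 0.30 (SE), limma adjusted p = 0.252, in the same direction as the brighter one. Across the 9 genes with a further tested probe set, the 2 probe sets of Bgn and of Eln also differed in size: the dimmer ones gave 0.82 ± 0.24 (SE), limma adjusted p = 0.202 and 0.30 ± 0.17 (SE), limma adjusted p = 0.583. By the next brightest probe set, 0 of the 9 had all failure arrays above wild type, Bgn and Eln included. The dimmer probe set of Fmod had all failure arrays below wild type, beside 4.34% of all probe sets. It read 79.2, 63.1 and 85.9 in failure against 89.1 to 117, a log2 change of -0.44 ± 0.21 (SE), limma adjusted p = 0.477. The direction of failure against wild type turned for Col1a2, and also for Col5a1, whose dimmer probe set gave 0.14 ± 0.17 (SE), limma adjusted p = 0.830, where the brighter one gave -0.43. Which of the probe sets follows the transcript better was not tested.

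**Figure D2:**
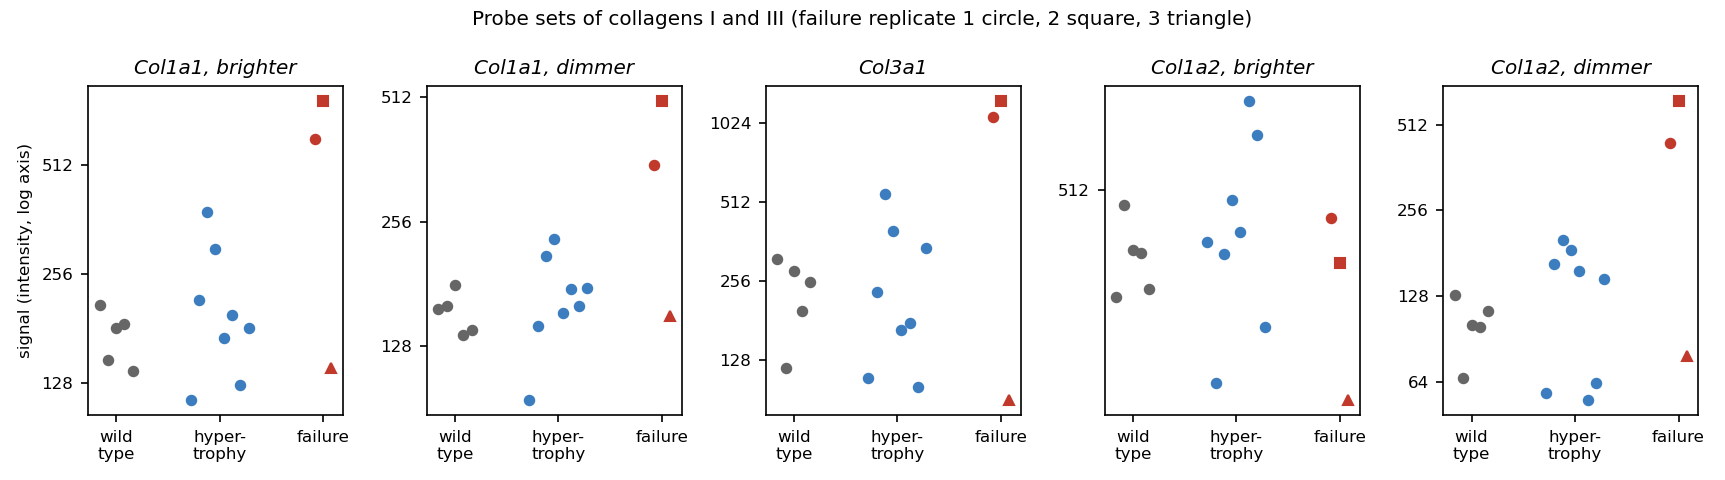
Signal on a log axis, with its own scale in each panel, of the brighter and dimmer probe sets of Col1a1 and Col1a2 and the probe set of Col3a1 in every array of the 3 groups (failure replicate 1 circle, 2 square, 3 triangle). In 4 of the 5 panels failure replicates 1 and 2 stand above all other arrays and replicate 3 does not, and the brighter Col1a2 probe set shows no such step.

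Among the nonfibrillar collagens Col8a1, a short chain network collagen of vessel walls and remodelling tissue, was at 151, 106, 114, 179 and 104 in wild type and from 72.3 to 178 with a median of 140.3 in hypertrophy. Its failure signals were 359.9, 306 and 160.3, a log2 change of 1.03 ± 0.30 (SE), limma adjusted p = 0.202. Replicates 1 and 2 were above all 13 other arrays, and replicate 3 lay within the wild type and hypertrophy ranges. The 3 chains of collagen VI, a beaded filament that links cells to fibres, had like patterns and small changes. Failure signals were 553, 479.9 and 298 for Col6a1, 429, 349 and 179 for Col6a2 and 237, 235 and 97.1 for Col6a3, against wild type ranges of 314 to 378, 184 to 261 and 101 to 179. All 3 had replicates 1 and 2 above and replicate 3 below every wild type array, and log2 changes of 0.33, 0.36 and 0.32, with adjusted p of 0.620 or more by limma.

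Basement membrane genes had a median log2 change of 0.32 over 6 tested genes, all 6 above 0. Nid1, the nidogen that bridges laminin and collagen IV, was at 119.8, 90.5, 95.0, 76.0 and 78.5 in wild type, from 55.1 to 138 with a median of 106 in hypertrophy and 218, 137 and 109 in failure, a log2 change of 0.71 ± 0.26 (SE), limma adjusted p = 0.319. Its replicate 3 overlapped wild type replicate 1. Col4a1 and Col4a2, which encode the paired chains of collagen IV and lie head to head in the genome, had log2 changes of 0.44 ± 0.39 and 0.20 ± 0.13 (SE). Failure signals were 1283, 964 and 595 for Col4a1 against 506 to 903 in wild type, and 1584, 1302 and 1179.6 for Col4a2 against 1082 to 1343. Col15a1, a collagen of the zone between muscle basement membrane and interstitium, ran over a wide range in failure, 408, 406 and 31.5. Replicates 1 and 2 were above and replicate 3 below the wild type range of 94.3 to 204, and the replicate 3 value was below the floor. Col18a1, the source of endostatin, and Hspg2, perlecan, had log2 changes of 0.13 and 0.060. Nid2 was below the floor in all 16 arrays.

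The elastic fibre and glycoprotein genes held 4 of the 7 genes whose groups did not overlap. Mfap5, a microfibril associated glycoprotein that binds fibrillin, was at 186, 159.8, 149.9, 192 and 158 in wild type and from 108 to 303 with a median of 172 in hypertrophy. In failure it read 538, 455 and 266, a log2 change of 1.26 ± 0.28 (SE), limma adjusted p = 0.0840. All 3 failure arrays were above wild type, and replicate 3 was below the highest hypertrophy array. Eln, elastin, was at 237, 215, 178, 149 and 171 in wild type, from 149 to 253 with a median of 185 in hypertrophy and 362, 326 and 295 in failure. Its log2 change of 0.80 ± 0.19 (SE), limma adjusted p = 0.117, came with failure arrays that were above all 13 others.

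Fbln2, fibulin 2, which links elastic and basement membrane proteins, was at 277, 320.1, 258, 317 and 251 in wild type and from 205 to 388 with a median of 269 in hypertrophy, against 547, 459.9 and 432 in failure. The log2 change was 0.75 ± 0.19 (SE), limma adjusted p = 0.125, and the 3 failure arrays were again above all others. Fn1, fibronectin, the glycoprotein laid down first in a wound matrix, was at 191, 156, 148, 128 and 110.0 in wild type, from 84.4 to 219 with a median of 149 in hypertrophy and 308, 514 and 208 in failure, a log2 change of 1.15 ± 0.29 (SE), limma adjusted p = 0.128. Replicate 3 was above every wild type array and below the highest hypertrophy array. Fbln1, fibulin 1, and Mfap2, another microfibril protein, had log2 changes of 0.060 ± 0.10 and 0.19 ± 0.13 (SE).

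Of the 6 proteoglycans measured, only Bgn stood apart from wild type in all 3 failure arrays. Bgn, biglycan, which binds collagen and TGF-beta and also signals to immune cells, was at 1199, 829.7, 687, 1090.4 and 663 in wild type and from 650.0 to 1941 with a median of 1075 in hypertrophy. Its failure signals were 3779, 3876 and 1262, a log2 change of 1.61 ± 0.38 (SE), limma adjusted p = 0.117, 3.05-fold. Replicates 1 and 2 were above all other arrays, and replicate 3 was just above wild type replicate 1 and inside the hypertrophy range. Dcn, decorin, the closest relative of biglycan, was at 2970.1, 3455 and 2399.6 against 2218 to 2835 in wild type, a log2 change of 0.22 ± 0.22 (SE). Lum, lumican, read 271, 267 and 77.2 against 124 to 159, with replicates 1 and 2 above and replicate 3 below wild type. Fmod, fibromodulin, and Ogn, osteoglycin, had log2 changes of -0.023 ± 0.14 and 0.14 ± 0.13 (SE). Vcan, versican, did not pass the filter, with 85.0, 97.4 and 48.3 in failure and 48.9 to 71.3 in wild type.

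The matricellular group had the highest median log2 change among groups of more than 2 tested genes, 0.90 over 5. Mgp, matrix Gla protein, an inhibitor of calcification in vessels and cartilage, was at 1418, 1296, 1099.9, 1600.0 and 976 in wild type and from 1383 to 2710.2 with a median of 1642 in hypertrophy. In failure it read 3707, 3688 and 1898, a log2 change of 1.23 ± 0.25 (SE), limma adjusted p = 0.0538. All 3 failure arrays were above wild type, and replicate 3 was inside the hypertrophy range. Postn, periostin, the classic product of activated cardiac fibroblasts, was at 147, 98.4, 96.4, 204 and 106 in wild type and from 33.5 to 304 with a median of 138 in hypertrophy, where the lowest value was below the floor. Its failure signals were 699, 679.7 and 169, and its log2 change of 1.79 ± 0.60 (SE), limma adjusted p = 0.273, was the highest of the 36, with replicate 3 inside the wild type range.

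Sparc, osteonectin, which binds collagen during its deposition, was at 289.6, 154, 205, 244 and 298 in wild type, from 97.9 to 415 with a median of 282 in hypertrophy and 609.8, 531 and 251 in failure, a log2 change of 0.90 ± 0.39 (SE), limma adjusted p = 0.417. Replicate 3 was inside the wild type range. Thbs2, thrombospondin 2, a regulator of fibre assembly and vessel growth, was at 117, 124, 126, 123 and 130.4 in wild type, from 94.6 to 187 with a median of 156 in hypertrophy and 129.6, 208 and 163 in failure. Its log2 change was 0.40 ± 0.18 (SE), limma adjusted p = 0.445, and here it was replicate 1 that overlapped wild type while replicates 2 and 3 were above it. Thbs4, thrombospondin 4, read 84.2, 83.5 and 134 against 80.6 to 98.1, so that replicate 3 alone was above wild type. Tnc, tenascin C, a protein of injured tissue, did not pass the filter, with 94.0, 116 and 74.7 in failure against 73.1, 72.6, 62.5, 61.5 and 63.6 in wild type, so that its groups did not overlap. Without the filter its log2 change was 0.49 ± 0.14 (SE), limma adjusted p = 0.242.

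Among genes of collagen maturation Loxl1, a lysyl oxidase needed for elastic fibre renewal, was at 117, 93.3, 104, 93.5 and 85.3 in wild type, from 57.9 to 178 with a median of 88.5 in hypertrophy and 215, 246 and 105 in failure, a log2 change of 0.85 ± 0.32 (SE), limma adjusted p = 0.337. Replicate 3 was inside the wild type range. Serpinh1, HSP47, the collagen chaperone, read 670.0, 587 and 202 against 150.5 to 509, with a log2 change of 0.51 ± 0.39 (SE). Plod1, a lysyl hydroxylase, and Pcolce, an enhancer of procollagen cleavage, had log2 changes of 0.27 ± 0.15 and 0.22 ± 0.21 (SE). Lox, the main collagen crosslinking oxidase, and P4ha1, a prolyl hydroxylase subunit, did not pass the filter. Lox was at 48.6, 58.2, 55.1, 35.6 and 50.8 in wild type and 34.0 to 65.6 in hypertrophy and at 95.7, 131 and 78.6 in failure, above all other arrays. Its log2 change without the filter was 0.99 ± 0.20 (SE), limma adjusted p = 0.0734. P4ha1 read 125, 114 and 73.8 in failure and 47.0 to 79.6 in wild type.

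The remaining fibroblast products completed the list. Pi16, peptidase inhibitor 16, a marker of adventitial fibroblasts, was at 147, 96.0, 90.4, 164 and 144 in wild type, from 115 to 205 with a median of 129 in hypertrophy and 257, 265 and 185 in failure on the second array type. The log2 change was 0.90 ± 0.24 (SE), limma adjusted p = 0.109, with failure above wild type in every array. Gsn, gelsolin, an actin severing protein that is abundant in cardiac fibroblasts, was at 1579, 975, 1237, 1289 and 1115 in wild type, from 1235 to 2631 with a median of 1725 in hypertrophy and 2289, 1988 and 1388 in failure. Its log2 change was 0.60 ± 0.23 (SE), limma adjusted p = 0.337, and replicate 3 was inside the wild type range.

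**Figure D3:**
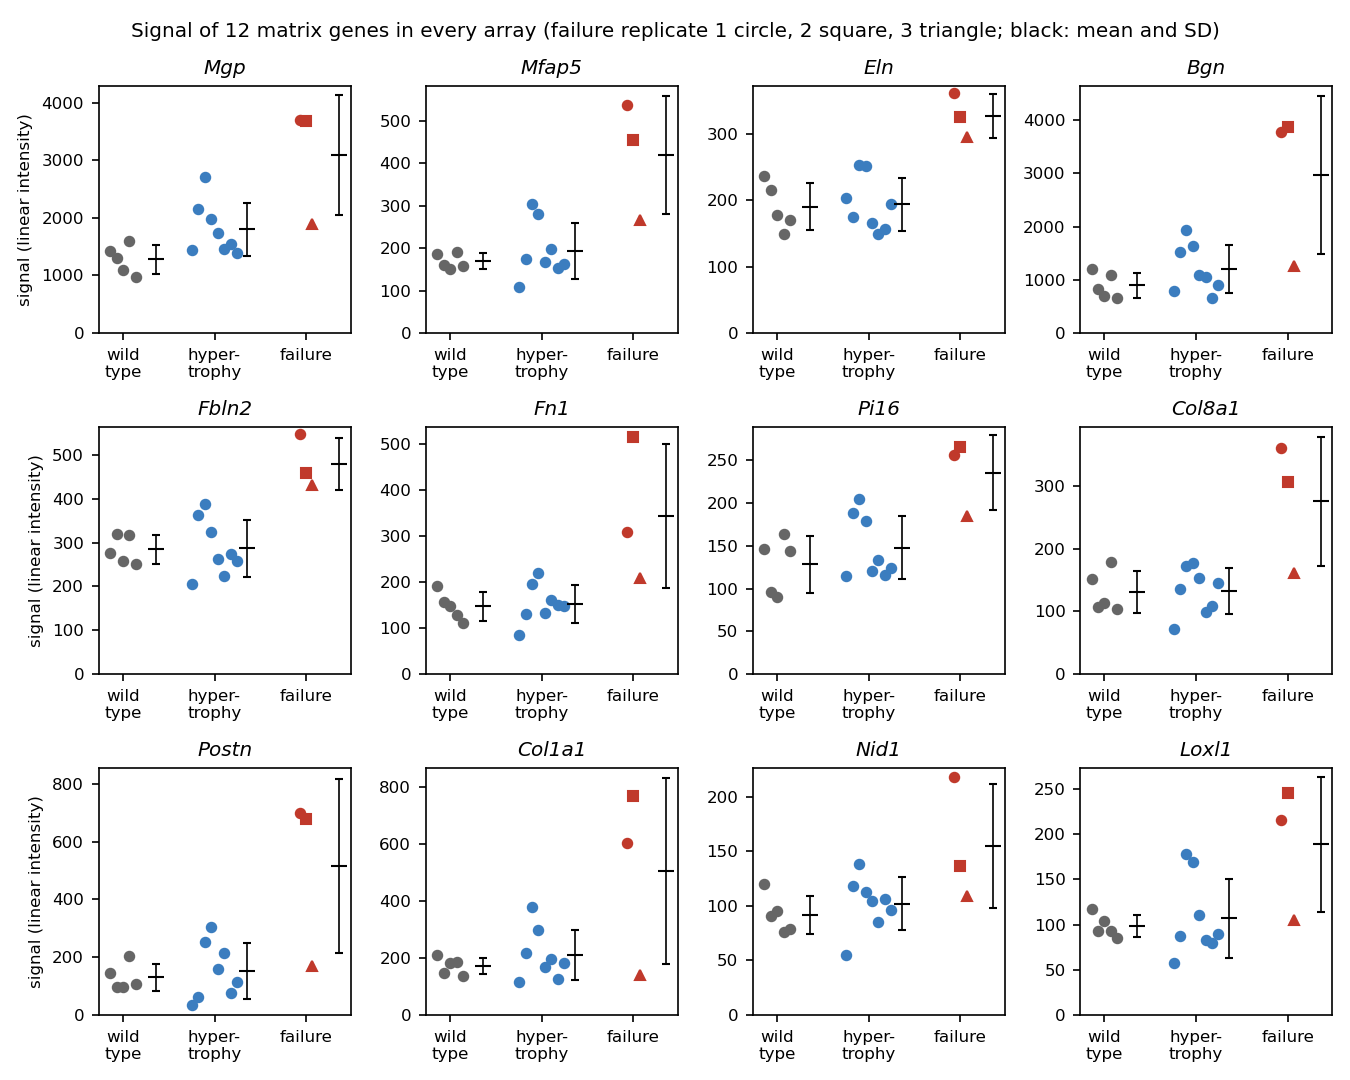
Signal (linear intensity, from 0, with its own scale in each panel) of the 12 matrix genes with the smallest p in failure against wild type, in every array of wild type, hypertrophy and failure, with the mean and SD in black. Failure replicates 1 (circle) and 2 (square) are above every wild type array in each panel and replicate 3 (triangle) is the lowest of the 3 in all 12, yet above wild type in 7.

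The promoters of 4 of the 15 genes described in full are shown. Among the 8 with the smallest p in failure against wild type, these had a single RefSeq promoter entry. Genes with several entries or with none were passed over. Bgn, Fbln2 and Pi16 had all failure arrays above wild type, and Col8a1 had 2. Windows are the 250 bases before the annotated start on GRCm38.p6, printed 5' to 3' along the gene's strand. Capitals mark matches, on either strand, to CAGAC (a SMAD box), GGGCGG (a GC box), CCAAT and TATAAA.

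Bgn, chrX:73483351-73483600 (+ strand): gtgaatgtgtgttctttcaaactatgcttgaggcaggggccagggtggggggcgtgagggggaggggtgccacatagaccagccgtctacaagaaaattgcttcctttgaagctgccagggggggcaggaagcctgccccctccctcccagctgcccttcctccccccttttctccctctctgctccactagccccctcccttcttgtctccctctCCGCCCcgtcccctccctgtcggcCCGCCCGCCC

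Fbln2, chr6:91212514-91212763 (+ strand): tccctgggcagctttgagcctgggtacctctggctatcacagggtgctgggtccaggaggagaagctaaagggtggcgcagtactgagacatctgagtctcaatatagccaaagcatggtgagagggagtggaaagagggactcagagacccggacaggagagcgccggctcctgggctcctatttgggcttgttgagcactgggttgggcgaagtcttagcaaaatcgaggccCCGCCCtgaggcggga

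Pi16, chr17:29318632-29318881 (+ strand): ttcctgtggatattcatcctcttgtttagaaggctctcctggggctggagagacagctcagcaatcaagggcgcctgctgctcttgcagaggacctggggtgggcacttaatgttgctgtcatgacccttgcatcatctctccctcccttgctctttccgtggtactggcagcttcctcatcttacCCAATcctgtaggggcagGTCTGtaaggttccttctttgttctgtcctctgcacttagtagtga

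Col8a1, chr16:57754738-57754987 (- strand): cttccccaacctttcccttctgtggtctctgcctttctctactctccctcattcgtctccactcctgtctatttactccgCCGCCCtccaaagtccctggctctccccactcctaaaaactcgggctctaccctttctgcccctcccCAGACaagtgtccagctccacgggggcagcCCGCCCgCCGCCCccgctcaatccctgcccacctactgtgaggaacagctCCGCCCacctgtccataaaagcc

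The Bgn window held 3 GC boxes, that of Fbln2 held 1, and that of Col8a1 held 4 GC boxes and 1 SMAD box. The Pi16 window held 1 SMAD box and 1 CCAAT box. Over 34 of the 46 genes with an entry, 58.1% of 43 windows held a SMAD box and 58.1% a GC box, where 42.2% and 32.7% of all 32851 windows did. CCAAT was found in 30.2% against 33.8%, and TATAAA in 18.6% against 12.4%. A match is a stretch of letters and does not show that a factor binds there.

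The failure arrays differed from each other in these genes. Among all tested probe sets, 29.4%, 28.1% and 28% were above every wild type array in failure replicates 1, 2 and 3. Of the 36 matrix genes, 26, 27 and 10 were, and replicate 3 had 8 of them below every wild type array, beside 17.1% of all probe sets. Replicate 3 was the lowest of the 3 failure arrays in 31 of 36 genes, beside 37.9% of all probe sets. The median log2 difference of the genes from the wild type mean was 0.92 in replicate 1, 0.70 in replicate 2 and 0.057 in replicate 3. These counts join the arrays of equal replicate number on both types, and the labels do not say that equal numbers are 1 animal. On the first type are 33 of the 36 genes. The 3 genes on the second type went the other way, with median differences of 0.26, 0.36 and 0.57 in failure replicates 1, 2 and 3.

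The 8 genes that replicate 3 placed below every wild type array were Col1a2, Col3a1, Col5a1, Col6a1, Col6a2, Col6a3, Col15a1 and Lum. Mgp, Mfap5, Eln, Bgn, Fbln2, Fn1 and Pi16, the 7 named above, were above every wild type array there, together with Thbs2, Thbs4 and Mfap2.

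**Figure D4:**
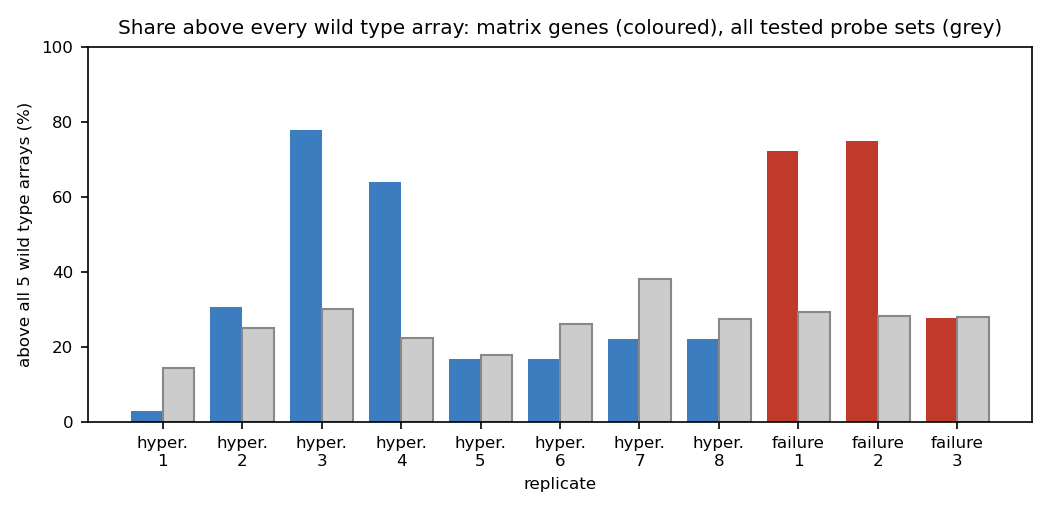
Share of the 36 matrix genes (coloured bars) and of all tested probe sets (grey bars) that lay above all 5 wild type arrays, in percent, for each hypertrophy and failure replicate. Failure replicates 1 and 2 stand at 72.2% and 75.0% of the matrix genes and replicate 3 at 27.8%, while hypertrophy replicates run from 2.78% to 77.8%.

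Failure replicate 3 was the lowest failure array in 31 of the 36 genes, so leaving it out tends to raise their changes. Calls made without it are therefore no separate support for a rise. Without failure replicate 3 the comparison with wild type called 6 of 36 genes, beside 0.536% of all probe sets. Each of the 6 rose in this fit, on the log2 scale: Bgn by 2.14 ± 0.35 (SE), limma adjusted p = 0.0120. Col1a1 rose by 2.0 ± 0.35 (SE), limma adjusted p = 0.0146. Mfap5 rose by 1.56 ± 0.29 (SE), limma adjusted p = 0.0199, and Mgp by 1.55 ± 0.24 (SE), limma adjusted p = 0.00765. For Fn1 the log2 change was 1.47 ± 0.30 (SE), limma adjusted p = 0.0281, and for Col8a1 it was 1.38 ± 0.30 (SE), limma adjusted p = 0.0440. The median log2 change over the 36 genes was then 0.77, and 25 of them had failure arrays above all wild type arrays, beside 17.4% of all probe sets. Leaving out replicate 1 or replicate 2 gave a median of 0.24 or 0.25 and called 0. Each of the 16 arrays was left out in turn in the same way.

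**Figure D5:**
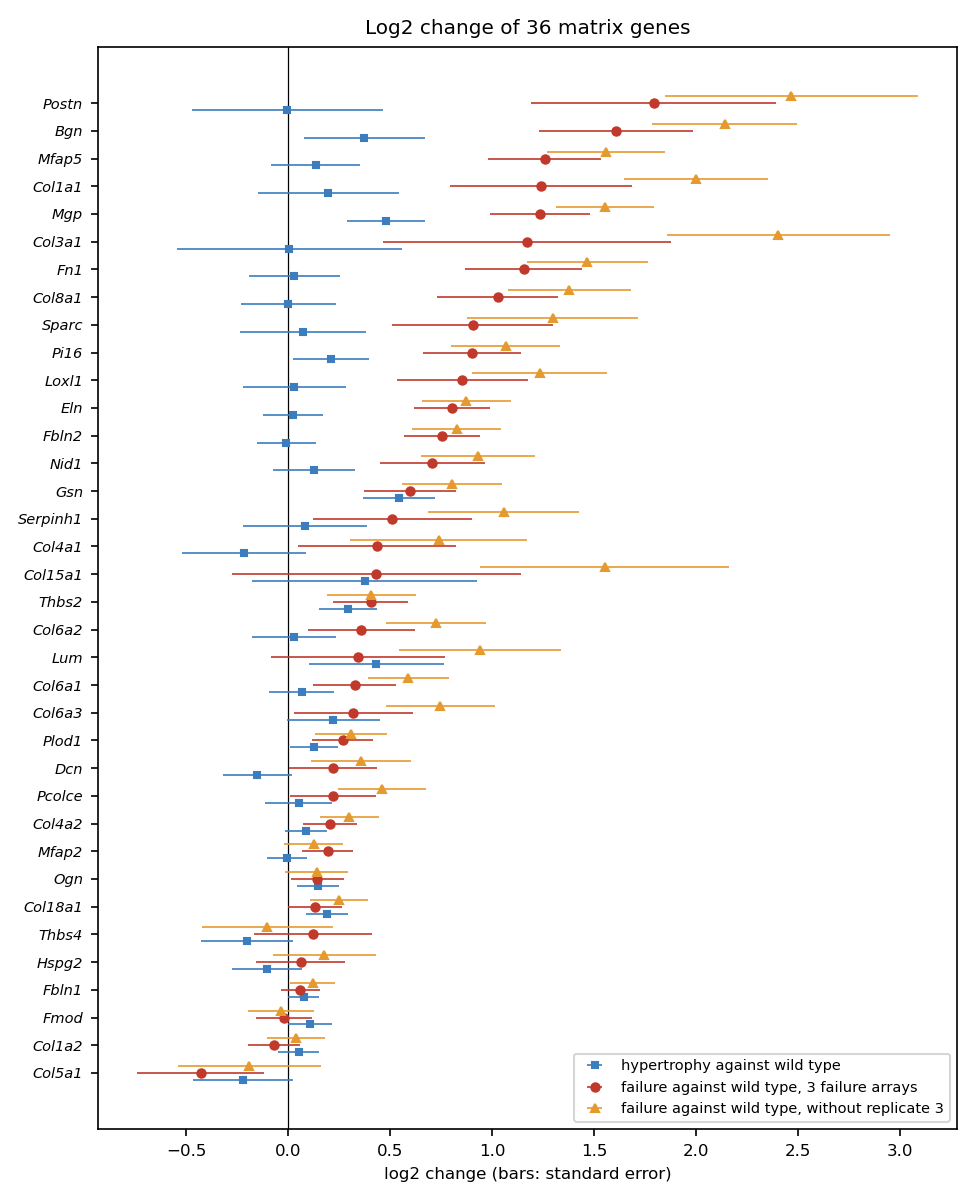
Log2 change (points, with bars of 1 standard error) of the 36 tested matrix genes for hypertrophy against wild type (blue squares), failure against wild type with 3 failure arrays (red circles) and the same without failure replicate 3 (orange triangles). Blue points lie near 0, red points reach 1.79 for Postn, and the orange points lie to the right of the red ones for most genes.

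On the first array type failure replicate 3 was also the 1 failure array with Xist, the transcript of the inactive X chromosome, below Eif2s3y, a Y-linked gene. Xist read 14.3 there and 159.7 and 129 in replicates 1 and 2, while Eif2s3y read 43.7, 4.94 and 4.83. Wild type had 2 arrays with Xist above Eif2s3y and 3 below, and hypertrophy 4 and 4. Within arrays with Xist above, the median log2 difference of failure from wild type over 33 genes was 0.75, with 26 genes above all such wild type arrays, beside 33.9% of all probe sets of that type. Within arrays with Xist below, where failure is replicate 3 alone, it was -0.042, with 11 of 33 above, beside 29.7% of all probe sets. The wild type arrays of these 2 kinds, 2 against 3, differed by a median of 0.0017 over the same genes. Single genes ran from -0.88 for Serpinh1 to 0.45 for Eln, so the median hides differences of both signs. On the second type Xist ran the other way, at 34.5, 3.12 and 51.5 in failure replicates 1, 2 and 3, with most arrays below the floor of 27.5, and Eif2s3y was not analysed there, so this split was made on the first type alone. With each type's own Xist as a covariate the median log2 change of failure against wild type over the 36 genes was 0.27, and with the Xist of the same-numbered first type array on both types it was 0.26. With 1 failure array of this kind, the sex that these transcripts mark and that single sample cannot be told apart. The ratio of the 5' to the 3' probe set of Actb was also higher in failure, at 1.10, 0.765 and 1.02 on the first type against 0.545 to 0.752 in wild type, and with this ratio as a covariate the median was 0.57.

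In hypertrophy the matrix genes were near wild type on average. Limma called 0 of 36, beside 0.0858% of all probe sets, with a smallest adjusted p of 0.762. The log2 change was above 0 in 28 of 36 genes (52% of all probe sets), with a median of 0.074. That median was 0.15 without hypertrophy replicate 1, 0.022 without hypertrophy replicate 3, 0.047 without hypertrophy replicate 4, 0.12 without wild type replicate 1 and 0.049 without wild type replicate 2. In hypertrophy 2 genes were higher at an unadjusted p under 0.05, beside 4.44% of all probe sets. These were Gsn at 0.54 ± 0.18 (SE), limma adjusted p = 0.960, and Mgp at 0.48 ± 0.19 (SE), limma adjusted p = 0.960. In 0 genes did every hypertrophy array lie above every wild type array, beside 0.3% of all probe sets.

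Hypertrophy arrays differed widely among themselves. In replicates 3 and 4, 28 and 23 of the 36 genes were above every wild type array, beside 30.2% and 22.3% of all probe sets. In replicate 1 only 1 gene was above and 20 were below, beside 14.3% of all probe sets above and 39.1% below, and that array also had the lowest trimmed mean of the type. Replicate 1 was the lowest of the 8 arrays in 26 genes (32% of all probe sets), and replicate 3 the highest in 22 (13.8%). In the other 5 hypertrophy replicates, between 6 and 11 genes were above every wild type array, beside 17.8% to 38.1% of all probe sets. Genes that split the failure arrays also ranged widely here: Col3a1 ran from 101 to 552 with a median of 205, Col15a1 from 35.95 to 423 with a median of 185, and Postn from 33.5 to 304 with a median of 138. The lowest values of Col15a1 and Postn were below the floor. Replicates 6 and 7, those of low Gapdh ratio, had 6 and 8 genes above wild type.

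Between the 2 diseased groups, failure was higher in 29 of 36 genes (58.5% of all probe sets), with a median log2 change of 0.33 against 0.040 over all probe sets. This comparison shares the failure arrays with the one against wild type, so the results are given side by side and not as separate support. Limma called 0 of 36, beside 0.0143% of all probe sets, with a smallest adjusted p of 0.147. At an unadjusted p under 0.05, 13 genes were higher, beside 6.34% of all probe sets, and 0 were lower. In Eln and Fbln2 all 3 failure arrays were above all 8 hypertrophy arrays, beside 1.47% of all probe sets, with log2 changes of 0.78 ± 0.17 and 0.76 ± 0.17 (SE) and limma adjusted p = 0.147 for both. Mfap5 had 1.12 ± 0.26 (SE), limma adjusted p = 0.147, and Fn1 1.13 ± 0.26 (SE), limma adjusted p = 0.156. Postn had 1.80 ± 0.56 (SE), limma adjusted p = 0.293. Gsn, whose hypertrophy range held all 3 failure arrays, had 0.053 ± 0.21 (SE), limma adjusted p = 0.965.

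Leaving out failure replicate 3, the lowest failure array in most of these genes, also tends to raise changes against hypertrophy. These calls too are no separate support. Without failure replicate 3, limma called 4 of 36 genes in failure against hypertrophy, beside 0.172% of all probe sets. In that fit 15 had groups that did not overlap, beside 4.93%. Each of the 4 rose, on the log2 scale: Col1a1 by 1.80 ± 0.33 (SE), limma adjusted p = 0.0336, Bgn by 1.77 ± 0.34 (SE), limma adjusted p = 0.0375, Fn1 by 1.44 ± 0.28 (SE), limma adjusted p = 0.0399, and Mfap5 by 1.42 ± 0.27 (SE), limma adjusted p = 0.0398.

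The regulators of the matrix programme were read from a list of TGF-beta and CCN genes, of which 12 of 22 were tested. In failure against wild type limma called 1 of the 12, beside 0.25% of all probe sets. The called gene was Tgfbr1, the signalling type I receptor of TGF-beta. Its signals were 169.7, 159 and 196 in failure, 82.3 to 123 in wild type and 91.4 to 149 in hypertrophy. Its log2 change was 0.80 ± 0.16 (SE), limma adjusted p = 0.0362. Among the failure arrays Tgfbr1 was highest in replicate 3, as were 2 of the 36 matrix genes and 37.6% of all probe sets. Ccn2, connective tissue growth factor, a target of TGF-beta and angiotensin II, was at 1516, 1982 and 1592 in failure against 311 to 762 in wild type and 199 to 910.3 in hypertrophy, a log2 change of 1.88 ± 0.39 (SE), limma adjusted p = 0.0587. Tgfb3, a TGF-beta ligand, was at 235, 292 and 167 against 104 to 118, a log2 change of 1.03 ± 0.25 (SE), limma adjusted p = 0.117, and Smad7, the inhibitory Smad, had 0.44 ± 0.14 (SE), limma adjusted p = 0.252. In all, 11 of the 12 were above 0, the median log2 change was 0.45, and in 4 all failure arrays were above wild type, beside 59.7% and 9.17% of all probe sets. The 8 of these genes on the first type had summed signals of 3444, 4009 and 3233 in failure, 1751 to 2486 in wild type and 1307 to 2537 in hypertrophy, so failure replicate 3 was the lowest of the 3 failure arrays but above every wild type array.

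Matrix turnover genes, the metalloproteinases, their inhibitors and cathepsins, had 14 of 23 tested and 0 called in failure against wild type, beside 0.25% of all probe sets. Mmp23, a membrane metalloproteinase, was at 324, 339 and 268 in failure and 155 to 231 in wild type, a log2 change of 0.60 ± 0.13 (SE), limma adjusted p = 0.0634. Timp3, a matrix bound inhibitor, was at 554, 542 and 582 against 194 to 401, with 0.94 ± 0.30 (SE), limma adjusted p = 0.259. Both had failure arrays above all wild type arrays, replicate 3 included, which made 2 of the 14, beside 9.17% of all probe sets. Timp1 and Ctsk, cathepsin K, had log2 changes of 0.32 ± 0.12 and 0.35 ± 0.15 (SE). The median of the 14 was 0.11.

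Matrix genes outside the 46 had no call in failure against wild type, beside 0.25% of all probe sets. Of 21 other collagens, 13 were tested, 0 were called and the median log2 change in failure was 0.026; the 4 with the smallest p were Col9a2 at -0.39, Col14a1 at 0.51, Col5a3 at 0.43 and Col9a1 at 0.17. Of 39 other matrix proteins, 24 were tested, 0 were called and the median was 0.095, led by Igfbp7 at 0.97 ± 0.30, Tgfbi at 0.63 ± 0.20, Ltbp4 at 1.05 ± 0.34 and Agrn at -0.21 ± 0.094 (SE). The 15 of them on the first type had summed signals of 6264, 6242 and 4344 in failure and 3545 to 4411 in wild type. In that sum replicates 1 and 2 were above every wild type array and replicate 3 was inside their range. The 9 on the second type summed to 1694, 2079 and 2104 in failure and 1906 to 2112 in wild type. There replicate 1 was below every wild type array, and replicate 3 was the highest failure array, inside the wild type range. Other collagen maturation genes had 12 of 19 tested, 0 called and a median of 0.14, with Pcolce2 at 0.50, Tgm2 at 0.57, Loxl3 at -0.36 and Plod3 at 0.23. These lists, like the 46 genes, were drawn up with earlier results of these data known.

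Markers of the cell types in ventricle were summed for each array beside these results, over tested genes on the first array type. For fibroblasts 11 of 17 markers were tested, with summed signals of 3299, 3182 and 2407 in failure, 2414 to 2719.5 in wild type and 2318 to 3104 in hypertrophy. In this sum replicates 1 and 2 were above every wild type array. Replicate 3 was level with the lowest of them, and its mean log2 signal over the markers, 7.56, lay inside the wild type range of 7.51 to 7.68. Fstl1, a secreted protein of activated fibroblasts, was among them, at 342, 269 and 102 against 54.2 to 93.2 in wild type, a log2 change of 1.45 ± 0.40 (SE), limma adjusted p = 0.176. Pdgfra, the receptor that defines cardiac fibroblasts, was at 117, 124 and 90.8 against 57.4 to 100.2, with 0.47 ± 0.27 (SE), and Gas1 and Cd34 had 0.24 and 0.29. Tcf21, Thy1, Fap, Medag and Dpep1 did not pass the filter. The part of fibroblast number in the matrix values was not tested.

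For macrophages and leukocytes 14 of 18 markers were tested, and their sum was 4171, 3767 and 3229 in failure against 3114 to 3725 in wild type and 2958 to 3651 in hypertrophy. The 4 with the smallest p, Laptm5, Cd14, Itgam and C1qb, had log2 changes of 0.40, 0.38, -0.63 and 0.87. For endothelium 8 of 13 were tested, and the 7 on the first type summed to 1843, 1701 and 2145 against 1599 to 2040.2 in wild type and 1037 to 2319 in hypertrophy, with replicate 3 the highest of the failure arrays. Tie1, Vwf, Esam and Flt1, the 4 with the smallest p, had log2 changes of 0.45, 0.88, 0.45 and 0.27. All 4 had failure arrays above wild type, 4 of the 8 tested, beside 9.17% of all probe sets. Only 5 of the 8 had a log2 change above 0, beside 59.7% of all probe sets, and the median of the 8 was 0.18. Smooth muscle and pericyte markers, 11 of 13 tested, summed to 1167, 1118 and 1246 for the 6 on the first type against 1114 to 1259 in wild type and 847 to 1214 in hypertrophy. Of these Abcc9, Pdgfrb, Mylk and Cspg4 had log2 changes of -0.41, 0.42, 0.23 and 0.23. Below the filter were Mrc1, Cd163 and Tyrobp of the macrophage list, Pecam1, Tek, Icam2 and Robo4 of the endothelial list and Kcnj8 of the mural list. None of the 3 lists had a called gene in failure against wild type, beside 0.25% of all probe sets, and their part in the matrix values was not tested.

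Cardiomyocyte markers summed to 57633, 57372 and 57403 for 11 genes in failure against 52748 to 60597 in wild type and 49582 to 63222 in hypertrophy, with log2 changes of Ckm, Tnni3, Mybpc3 and Pln at -1.13, -0.34, 0.26 and -0.21. Atrial markers, 5 of 6 tested, summed to 4141, 4377 and 6055 for 4 genes in failure against 1306 to 3369 in wild type and 1033 to 4687 in hypertrophy, all above wild type and highest in replicate 3. Their leading genes were Myl7 at 1.60 ± 0.42 and Nppa at 1.26 ± 0.54 (SE), followed by Nr2f2 at 0.25 and Myl4 at -0.61; Sln, an atrial gene, was below the filter. The part of atrial tissue in the samples was not tested. Cartilage and valve markers, of which 3 of 10 were tested, summed to 719, 742 and 696 in failure and 603 to 704 in wild type and 616 to 818 in hypertrophy, with Matn1, Chad and Acan at 0.30, 0.086 and 0.040; Col2a1, Sox9, Matn3 and Hapln1 were below the filter. Mesothelial markers, 2 of 8 tested, summed to 659.8 to 742 against 632 to 811 in wild type and 449 to 759 in hypertrophy, with Krt19 at 0.12 and Krt8 at -0.018; Wt1, Msln, Upk3b and Krt18 were below the filter. Adipocyte markers, 4 of 8 tested, summed to 966 to 1095 against 923 to 1043 in wild type and 901 to 1103 in hypertrophy, with Retn, Ucp1, Cidec and Lep at 0.076, -0.13, 0.057 and 0.026; Adipoq and Fabp4 were below the filter. None of the lists of this paragraph had a called gene in failure against wild type, beside 0.25% of all probe sets.

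In failure against wild type, Mgp passed the threshold under 13 of 29 alternative settings, with adjusted p from 0.00765 to 0.404 by limma and a log2 change from 1.07 to 1.55. With the 8 arrays of failure and wild type fitted alone, which leaves out the spread of the hypertrophy arrays, 4 of 36 genes were called (Mgp, Mfap5, Eln and Fbln2), beside 2.25% of all probe sets. With quantile or median scaling the calls were Mgp and Mfap5, and with the Actb ratio as a covariate Fn1 alone was called.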

How the data were processed

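The authors deposited 1 intensity per probe set and array on a linear scale, at least 1, per the file's values; their scaling and summary method are not given in the sources used here. The arrays' trimmed means varied by 4.82% and 3.31% (coefficient of variation) on the first and second type and medians by 6.60% and 4.65%, and the design scaled arrays only where both measures reached 5%. On the first type only the medians did, so values were used as deposited; median scaling is given as an alternative. Values were raised to the 20th percentile of the type and put on the log2 scale. Probe sets were tested if they were no controls and 3 or more arrays had them at or above that array's median (6980 and 7004 probe sets). limma 3.58.1 in R 4.3.3 was run on all 16 arrays of a type, with 3 comparisons, two-sided, and checked on simulated data that held 200 probe sets with known changes. Arrays give no counts; their number limits the precision, with a median standard error of 0.17 on the log2 scale in failure against wild type. Symbols come from the platform annotation, updated to GRCm38.p6; 10833 and 10581 probe sets had 1 symbol. Full values go to genes called in any comparison and to the 15 with the smallest p in failure against wild type, and up to 4 genes are named per other list. The genes and lists were chosen with earlier results of these data known. Alternatives were other scaling, floor, filter, probe set, covariates and blocks, and leaving out each array; 2 on Xist were chosen after seeing the data. Promoters were matched by symbol. Figures used matplotlib 3.10.9.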

Additional observations from a re-analysis of the deposited data

Results flagged for a closer look

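Single arrays stood far from the rest of their group in 5 of 72 groups of 4 or more arrays, by the gap to the nearest array over the range of the group; chance gives about 5% of groups. In hypertrophy replicate 1, Col15a1 was at 35.95 against 142 to 423 in the other 7 arrays. In the same array Pcolce was at 254 against 386 to 559. Wild type replicate 2 was low for Col6a2, at 184 against 243 to 261, and for Pcolce, at 318 against 406 to 428. Thbs2 was at 94.6 in hypertrophy replicate 2 against 148 to 187 in the others. The failure group of 3 arrays is too small for this rule.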

How the results depend on the processing

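Without an array in turn, genes called ranged from 0 to 6 in failure against wild type and 0 to 4 in failure against hypertrophy (main 0 and 0; highest without failure replicate 3), and genes with separate groups from 7 to 25, 2 to 15 and, in hypertrophy against wild type, 0 to 1. In failure against wild type 1 gene was called with log2 of the value plus 32, with the median reached in 8 arrays, with trend and robust estimation, without hypertrophy replicates 6 and 7, and with the Actb ratio, Xist or Xist of the same-numbered first type array as covariate; 2 were called with quantile or median scaling, 4 with only the groups compared and 0 with the replicate block. By the next brightest probe set 0 had every failure array above the other group in either failure comparison. Fmod by that probe set had every failure array below wild type.

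Over all probe sets, calls in failure against wild type on the first type (main 10) were 30 with quantile scaling, 33 with median scaling, 20 with log2 plus 32, 22 without filter, 122 with only the groups compared, 3 with the replicate block, 42 with the Actb ratio, 34 without hypertrophy replicates 6 and 7, and 0 to 51 leaving out arrays. On the second (main 25) they were 40 with median scaling, 55 without filter, 193 with only the groups compared, 6 with the block, 81 with the Actb ratio, 13 with Xist, 10 with the same-numbered Xist, 70 without hypertrophy replicates 6 and 7, and 4 to 79 leaving out arrays. In hypertrophy against wild type they were 1 without filter and 0 to 1 leaving out arrays on the first type (main 0), and 3 with the block, 7 without hypertrophy replicates 6 and 7 and 5 to 25 leaving out arrays on the second (main 12). In failure against hypertrophy they were 10 without filter and 0 to 24 leaving out arrays on the first type (main 0), and on the second (main 2) 5 with log2 plus 32, 12 without filter, 0 with only the groups compared, the block, the Actb ratio or either Xist covariate or without hypertrophy replicates 6 and 7, and 0 to 13 leaving out arrays.

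Signs of single genes also turned. In hypertrophy against wild type the log2 change of Fbln2 was 0.0010 with quantile scaling and 0.087 with the block and 0.051 without hypertrophy replicates 6 and 7; of Col8a1, -0.0040 with median scaling and -0.011 with either Xist covariate; of Postn, 0.028 with log2 plus 32, 0.0034 with the block and 0.065 with the Actb ratio; of Fn1, -0.0018 with the block; and of Eln, -0.086 with the next brightest probe set and -2.8e-04 with the Actb ratio. Leaving out arrays, they ran from -0.060 to 0.11 for Eln, -0.077 to 0.055 for Fbln2, -0.069 to 0.14 for Fn1, -0.074 to 0.12 for Col8a1, -0.19 to 0.23 for Postn, -0.089 to 0.14 for Loxl1 and -0.073 to 0.26 for Sparc. In failure against hypertrophy Gsn was -0.037 with median scaling, -0.055 with the block, -0.040 with either Xist covariate and -0.10 to 0.26 leaving out arrays, and Thbs2 -0.060 to 0.28 leaving out arrays. The cause of these moves was not tested.

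Within each array type, same-numbered arrays of different groups did not appear paired as a set. The correlation of their deviations was above 0.1 in 3 of 11 cases on the first type and 2 of 11 on the second. It ran from -0.191 to 0.363 on the first type and from -0.183 to 0.141 on the second. The highest value was that of hypertrophy and wild type replicates 3. Whether same-numbered arrays of the first and second type come from the same animal was not tested. All 15 genes described in full kept the direction above wild type in failure under every alternative run. They were chosen for the smallest p in this comparison, and the alternatives reuse mostly the same arrays. A kept direction was therefore likely from the start and is no separate support. Of these genes only Bgn, Col1a1 and Eln had a further tested probe set to run.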
